A study of Mus musculus with 8 samples.

Results

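The genes described here are 9 chromatin genes, comprising 7 histone acetyltransferases (Ep300, Crebbp, Kat2a, Kat2b, Kat5, Kat6a and Kat6b) and 2 readers of acetylated histones of the BET family (Brd2 and Brd3). They were chosen by name with this comparison already in view, matched by Ensembl ID through GENCODE M21 symbols, and are 9 of 141239 counted features. All 9 were among the 26717 features, 13785 of them coding genes, that passed the filter on low counts. RNA-seq of whole hearts covered 8 libraries from 2-week-old mice of mixed strain, all lacking Lmna, the gene of the nuclear lamina proteins lamin A and lamin C. Untreated Lmna-/- hearts gave 3 libraries (replicates 6, 7 and 8), and Lmna-/- hearts in which wild-type LMNA had been put back with AAV9, an adeno-associated virus vector used to reach heart muscle, gave 5 (replicates 1 to 5; Lmna-/-:AAV9 Lmna WT, called AAV9-LMNA below). Which promoter drives the vector and which cells it entered is not stated in the labels, and neither an empty-vector group nor a wild-type group was analysed here. Separate animals are not stated either, so a p-value here covers only library-to-library spread, part of which may be technical.

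Histone acetyltransferases place acetyl groups on lysines of histone tails, and bromodomain proteins bind those marks and bring in the machinery of transcription. p300 (Ep300) and CBP (Crebbp) are paralogs that act as coactivators at enhancers and are known in heart muscle as partners of GATA4 and MEF2 factors. Kat2a (GCN5) and Kat2b (PCAF) are alternative enzymes of the SAGA and ATAC complexes, Kat5 (TIP60) is the enzyme of the NuA4/TIP60 complex, and Kat6a (MOZ) and Kat6b (MORF) are alternative enzymes of a complex with BRPF scaffold proteins.

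The libraries held 21439956 to 26492443 counts on features, and raw counts of the 9 genes ran from 290 to 5615 per library. Lmna itself was at 46.4, 68.7 and 32.3 CPM (counts scaled to library size) in the untreated libraries and at 393, 227, 325, 312 and 747 CPM in AAV9-LMNA replicates 1 to 5 (log2 fold change 3.03, SE 0.46, edgeR quasi-likelihood test with Benjamini-Hochberg adjustment, adjusted p = 0.00486), which goes with the labels. Untreated libraries had 19.94% ± 4.195 (SD, n = 3) of their reads outside any feature and AAV9-LMNA libraries 12.42% ± 0.367 (SD, n = 5), with p = 0.0179 in a two-sided exact permutation test, the smallest value that 56 splits allow. Markers of heart muscle were high in both groups, with a summed level of 46500 to 71800 CPM untreated and 55800 to 67500 CPM in AAV9-LMNA. Summed atrial markers reached 977 CPM in untreated replicate 8 against 63.1 and 80.9 CPM in the other untreated libraries and 59.1 to 177 CPM in AAV9-LMNA. Summed fibroblast markers were at 1690 CPM in untreated replicate 6, against 6220 and 7030 CPM in the other untreated libraries and 4560 to 7460 CPM in AAV9-LMNA. In the other lists the summed level ran from 1130 to 1940 CPM untreated and 1590 to 2000 CPM in AAV9-LMNA for endothelial markers, from 2080 to 2430 and 2190 to 2540 CPM for mural markers, from 150 to 500 and 412 to 443 CPM for macrophage markers, from 0.328 to 2.81 and 1.99 to 4.89 CPM for lymphocyte markers, and from 446 to 959 and 392 to 1170 CPM for erythroid markers. Of the markers tested, 3 of 4 atrial markers were called lower in AAV9-LMNA, and 2 of 8 endothelial and 2 of 4 lymphocyte markers higher; of 8 heart muscle markers 1 was called in each direction, and no fibroblast, mural, macrophage or erythroid marker was called. No marker was at 0 in all libraries. The part of cell makeup and of the reads outside features in the values below was not tested, and in whole hearts fewer cells of a type and less RNA per cell cannot be told apart.

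Of the 9 genes, Ep300, Crebbp, Kat6a and Kat6b were called lower in AAV9-LMNA than in untreated hearts, none was called higher and 5 were not called. A call is an adjusted p under 0.05 in the edgeR test over all features. Of all coding genes tested, 6.07% were called lower and 18.4% higher, and of all features 15% and 10.6%. The genes were chosen with this contrast in view, so these counts and the fold changes below are given as a description. The median log2 fold change was -0.15 for the 9 genes, 0.21 for the coding genes and -0.03 for all features. CPM ranges of the groups did not overlap for 5 genes that were lower in AAV9-LMNA and for 1 that was higher, against 6.61% and 23.1% of coding genes.

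**Figure D1:**
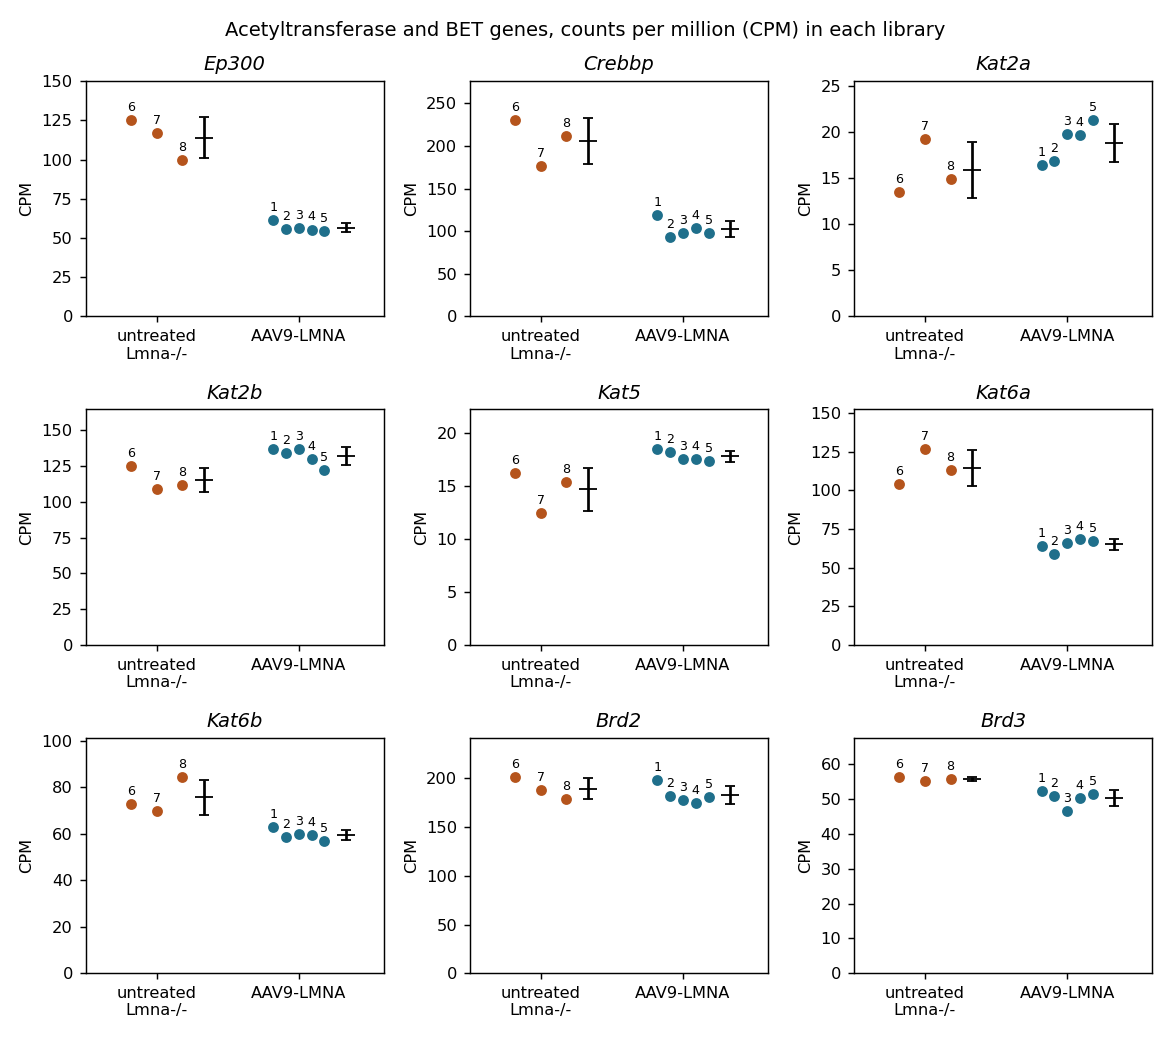
CPM of each gene (linear axis from 0) in the 3 untreated Lmna-/- and 5 AAV9-LMNA libraries, numbered by replicate, with the mean and SD of each group as a bar. Ep300, Crebbp and Kat6a stand well apart between the groups, with all 5 AAV9-LMNA libraries below the 3 untreated ones, and Brd2 and Kat2b overlap.

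Ep300 encodes p300 (chromosome 15, 81585351 to 81652077, plus strand, GRCm38; exonic length 14273 bases). It was at 125, 117 and 99.8 CPM in untreated replicates 6, 7 and 8 and at 61.3, 55.8, 56.3, 55.4 and 54.6 CPM in AAV9-LMNA replicates 1 to 5. The lowest untreated library was above the highest AAV9-LMNA library. The means were 114 ± 12.7 CPM (SD, n = 3) and 56.7 ± 2.65 CPM (SD, n = 5), a log2 fold change of -1.0 (SE 0.09). Crebbp, the gene of CBP, lies on chromosome 16 (4081328 to 4213997, minus strand; 13540 exonic bases). Its untreated libraries held 230, 176 and 211 CPM and its AAV9-LMNA libraries 119, 93.7, 98.3, 104 and 98.1 CPM. These ranges did not overlap either. The means were 206 ± 27.4 CPM (SD, n = 3) and 103 ± 9.71 CPM (SD, n = 5), a log2 fold change of -1.01 (SE 0.11), so both paralogs were lower by a like amount.

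Kat6a (chromosome 8, 22859535 to 22943259, plus strand; 9180 exonic bases) encodes MOZ, first known from translocations in acute myeloid leukaemia. It was at 104, 127 and 113 CPM untreated and at 64.2, 59.1, 65.9, 68.5 and 67.5 CPM in AAV9-LMNA. Every AAV9-LMNA library was below every untreated one. The means were 115 ± 11.4 CPM (SD, n = 3) and 65.0 ± 3.67 CPM (SD, n = 5), a log2 fold change of -0.82 (SE 0.09). Its paralog Kat6b (chromosome 14, 21481434 to 21672478, plus strand; 16826 exonic bases) differed less, at 72.8, 69.9 and 84.3 CPM untreated and 62.7, 58.7, 59.7, 59.4 and 56.9 CPM in AAV9-LMNA. The ranges lay apart, with means of 75.7 ± 7.64 CPM (SD, n = 3) and 59.5 ± 2.12 CPM (SD, n = 5) and a log2 fold change of -0.35 (SE 0.09). The call of Kat6b was lost after the correction for length and GC content (-0.14), with no filter on low counts (-0.31), without untreated replicate 8 (-0.25) and without untreated replicates 6 and 8 (-0.22).

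Promoter windows of Kat6b (called lower) and Kat2a (not called) are shown because they hold no GENCODE exon and differ in base composition. Each is the 250 bases before a RefSeq start on GRCm38.p6, with capitals marking GC boxes, GGGCGG or CCGCCC on the other strand. Those of Ep300 and Crebbp overlap annotated exons and are not printed. The Kat6b window is chr14:21499520-21499769 on the plus strand, in an intron of a longer transcript, and the Kat2a window is chr11:100712468-100712717 on the minus strand.
Kat6b: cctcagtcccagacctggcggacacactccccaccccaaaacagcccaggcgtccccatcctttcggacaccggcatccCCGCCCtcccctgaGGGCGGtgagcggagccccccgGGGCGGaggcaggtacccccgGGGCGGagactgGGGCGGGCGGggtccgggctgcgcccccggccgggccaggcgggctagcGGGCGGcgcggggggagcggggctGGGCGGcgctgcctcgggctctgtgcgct
Kat2a: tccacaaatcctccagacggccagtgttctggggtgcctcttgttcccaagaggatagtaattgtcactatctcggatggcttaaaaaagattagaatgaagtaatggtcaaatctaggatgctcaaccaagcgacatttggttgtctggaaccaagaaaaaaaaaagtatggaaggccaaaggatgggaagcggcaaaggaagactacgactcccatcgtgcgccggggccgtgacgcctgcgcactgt
The Kat6b window held 8 GC boxes at a GC content of 78.8%, and the Kat2a window held none at 48.8%. The median over 32851 mouse promoter windows was 52.4%, and 32.7% of them held at least 1 GC box. The Ep300 window held 1 GC box at 73.2% GC and the Crebbp window 2 at 84.0%. Genes that were not called had such windows too. The Brd3 window held 1 GC box at 73.2% GC, 1 Kat5 window 3 at 71.6% and 1 Brd2 window 1 at 65.2%. The other Kat5 window (55.2% GC) and the other Brd2 windows (56.4% and 73.6%) held none. The Kat2b windows held none either, at 40.8% and 48.4%, the latter also free of exons. Whether base composition goes with the calls was not tested. On either strand, the Kat6b, Kat2a, Ep300 and Crebbp windows held no cyclic AMP response element (TGACGTCA, in 1.55% of windows) and no CCAAT box (CCAAT or ATTGG, 33.8%). They also held no ETS site (CCGGAAG or CTTCCGG, 6.91%), NRF1 site (0.782%), E-box CACGTG (6.02%) or TATA box (TATAAA or TTTATA, 12.4%). Of the other windows searched, 1 of Kat2b held a CCAAT box and 1 of Kat5 a CCAAT box and the E-box. The ETS site and the NRF1 site were each found in 1 window of Brd2. GC boxes and the other motifs are matches of letters, not known sites, and may overlap one another.

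Kat2a, Kat2b and Kat5 lay on the other side or near zero. Kat2a (chromosome 11, 100704746 to 100712465, minus strand; 3480 exonic bases) was at 13.5, 19.3 and 14.9 CPM untreated and 16.4, 16.9, 19.8, 19.7 and 21.3 CPM in AAV9-LMNA. The groups overlapped, since untreated replicate 7 was above AAV9-LMNA replicates 1 and 2. The means were 15.9 ± 3.06 CPM (SD, n = 3) and 18.8 ± 2.07 CPM (SD, n = 5), a log2 fold change of 0.24 (SE 0.15). Without untreated replicate 7 it was called higher, at 0.42. Kat2b (chromosome 17, 53566861 to 53672720, plus strand; 4867 exonic bases) was at 125, 109 and 112 CPM untreated and 137, 134, 137, 130 and 122 CPM in AAV9-LMNA. Those ranges overlapped too, with means of 115 ± 8.29 CPM (SD, n = 3) and 132 ± 6.24 CPM (SD, n = 5) and a log2 fold change of 0.19 (SE 0.09).

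Kat5 (chromosome 19, 5603014 to 5610237, minus strand; 3509 exonic bases) encodes TIP60, which also takes part in the response to DNA breaks. It was at 16.2, 12.4 and 15.4 CPM untreated and 18.5, 18.2, 17.5, 17.5 and 17.3 CPM in AAV9-LMNA. The ranges did not overlap, yet the gene was not called, with means of 14.7 ± 2.04 CPM (SD, n = 3) and 17.8 ± 0.52 CPM (SD, n = 5) and a log2 fold change of 0.28 (SE 0.12). It was called higher without untreated replicates 6 and 8 (0.54), where 1 library stands for the untreated group and is assumed to vary like the others. Of its exonic bases, 12.14% are shared with Rnaseh2c on the other strand, and reads were counted without strand, so those of the 2 genes cannot be told apart there. The directions of these genes hung on the scaling: with Ensembl features alone Kat2a was at 0.06, Kat2b at -0.01 and Kat5 at 0.07, and after the length and GC correction they were at -0.02, -0.05 and -0.01.

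Brd2 and Brd3, the BET genes, differed little. Brd2 (chromosome 17, 34112023 to 34122634, minus strand; 7826 exonic bases) was at 201, 188 and 179 CPM untreated and 198, 182, 178, 175 and 181 CPM in AAV9-LMNA. The groups overlapped almost throughout, at 190 ± 11.3 CPM (SD, n = 3) and 183 ± 8.72 CPM (SD, n = 5), a log2 fold change of -0.05 (SE 0.08). Of its exonic bases, 9.78% overlap H2-DMa and an antisense gene. Brd3 (chromosome 2, 27445579 to 27507662, minus strand; 7336 exonic bases) was at 56.2, 55.2 and 55.7 CPM untreated and 52.3, 50.8, 46.5, 50.2 and 51.4 CPM in AAV9-LMNA. The ranges did not overlap, with means of 55.7 ± 0.505 CPM (SD, n = 3) and 50.3 ± 2.22 CPM (SD, n = 5) and a log2 fold change of -0.15 (SE 0.08). It was called lower with Ensembl features alone (-0.35).

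Levels can be compared between genes only per length. In CPM per kilobase of exonic sequence, the untreated order was Brd2 at 24.2 ± 1.44 (SD, n = 3), Kat2b at 23.7 ± 1.7, Crebbp at 15.2 ± 2.02, Kat6a at 12.5 ± 1.24, Ep300 at 7.97 ± 0.888, Brd3 at 7.59 ± 0.0688, Kat2a at 4.57 ± 0.878, Kat6b at 4.5 ± 0.454 and Kat5 at 4.18 ± 0.583. Over all pairs, library ranges overlapped between Brd2 and Kat2b, between Crebbp and Kat6a, between Ep300 and Brd3, and among Kat2a, Kat6b and Kat5. In AAV9-LMNA the order was Kat2b at 27.1 ± 1.28 (SD, n = 5), Brd2 at 23.3 ± 1.11, Crebbp at 7.57 ± 0.717, Kat6a at 7.09 ± 0.4, Brd3 at 6.85 ± 0.302, Kat2a at 5.41 ± 0.594, Kat5 at 5.07 ± 0.148, Ep300 at 3.97 ± 0.186 and Kat6b at 3.54 ± 0.126. Ranges overlapped there between Kat2b and Brd2, among Crebbp, Kat6a and Brd3, and between Kat2a and Kat5. Ep300 stood above Brd3, Kat2a and Kat5 in untreated hearts by mean level, though its range overlapped that of Brd3, and below them in AAV9-LMNA. Per kilobase of the longest transcript, which is much shorter than the exonic sequence for Kat6b, Brd2 led in both groups (40.7 ± 2.43 and 39.2 ± 1.87) and Kat6b was at 9.83 ± 0.993 untreated and 7.73 ± 0.275 in AAV9-LMNA. On that scale Ep300 (5.93 ± 0.277) and Kat2a (5.76 ± 0.633) overlapped in AAV9-LMNA.

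The median log2 fold change of coding genes went with length, from 0.3 among genes as short as Kat2a to -0.18 among genes as long as Kat6b, so each gene was set beside tested coding genes whose exonic length was between 20% shorter and 25% longer than its own. Ep300, at -1.0, was below all but 4.97% of its 765 like-length genes, whose median was -0.12. Crebbp was below all but 4.13% of 872 genes (median -0.09) and Kat6a below all but 4.06% of 2119 (median 0.03). Kat6b lay within the quartiles of its set, with 32.0% of 469 genes lower (median -0.18). Called lower were 20.4% of the genes of like length to Ep300, 18.9% for Crebbp, 11.1% for Kat6a and 26% for Kat6b. The other 5 genes lay within the quartiles of theirs, with 43.2% of like-length genes lower than Kat2a, 47.3% lower than Kat2b, 47.5% lower than Kat5, 33.8% lower than Brd2 and 25.8% lower than Brd3. With the longest transcript as the length, 4.92%, 5.98% and 6.67% of like-length genes were lower than Ep300, Crebbp and Kat6a. With the mean CPM also within 2-fold, the shares were 2.7%, 3.38% and 3.01%. Kat6b lay just below the lower quartile in both of these windows, with 23.1% and 24.7% of genes lower, and so did Brd3 in the window on length and CPM, with 21%.

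After the correction for length and GC content, which left the coding genes at a median of 0.01, Ep300, Crebbp and Kat6a were again below their sets. Ep300 was at -0.84, with 5.1% of like-length genes lower, Crebbp at -0.86 with 4.13% and Kat6a at -0.83 with 3.78%. Kat6b was at -0.14 with 33.9% lower. Called lower after the correction were 5.8% of coding genes (higher 2.95%), and 9.8%, 9.86%, 8.45% and 11.3% of the genes of like length to Ep300, Crebbp, Kat6a and Kat6b. The percentiles are a description, since the genes were chosen with their values known.

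**Figure D2:**
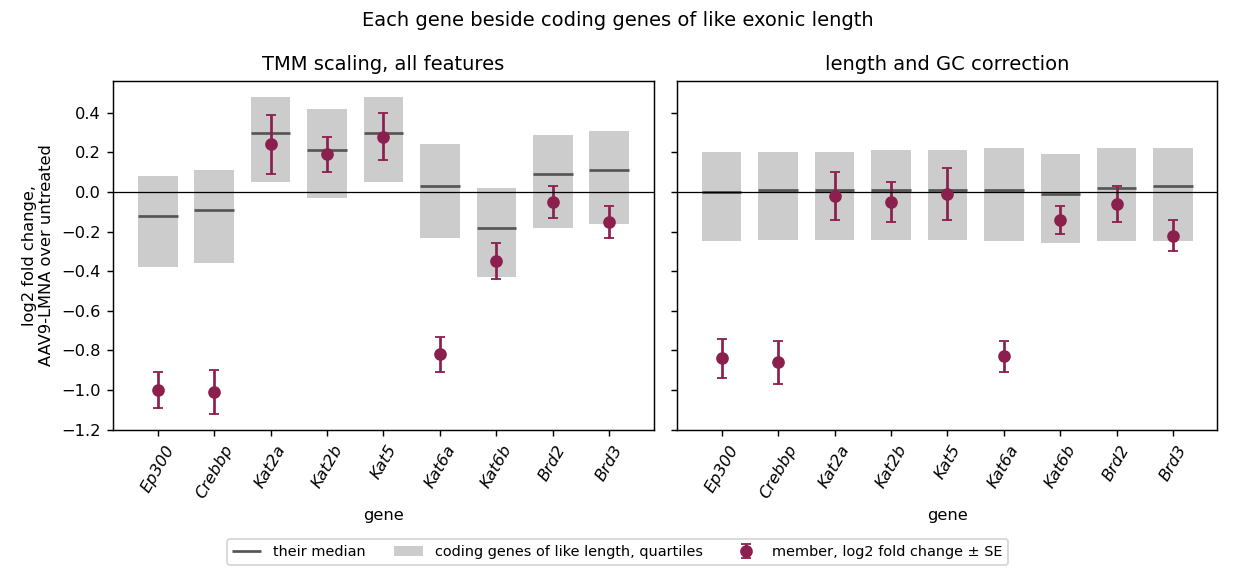
Log2 fold change, AAV9-LMNA over untreated, of each gene (point, bar ± SE) beside the quartiles (grey) and median (line) of coding genes of like exonic length, with all features scaled together (left) and after the length and GC correction (right). Ep300, Crebbp and Kat6a lie below the grey boxes on both sides and the other 6 genes lie inside them.

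The calls were followed over 16 other fits. Ep300, Crebbp and Kat6a were called lower in all 16, with log2 fold changes from -1.21 to -0.84, from -1.21 to -0.77 and from -1.01 to -0.72, and Kat6b in 12 of them, from -0.55 to -0.14. Scaling on Ensembl features alone shifted the log2 fold changes of the features it shared with the first fit by a median of -0.19, and the length and GC correction by -0.25. With that scaling 8.73% of coding genes were called lower and 4.49% higher, and 5 of the 9 genes were called lower, Brd3 among them.

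**Figure D3:**
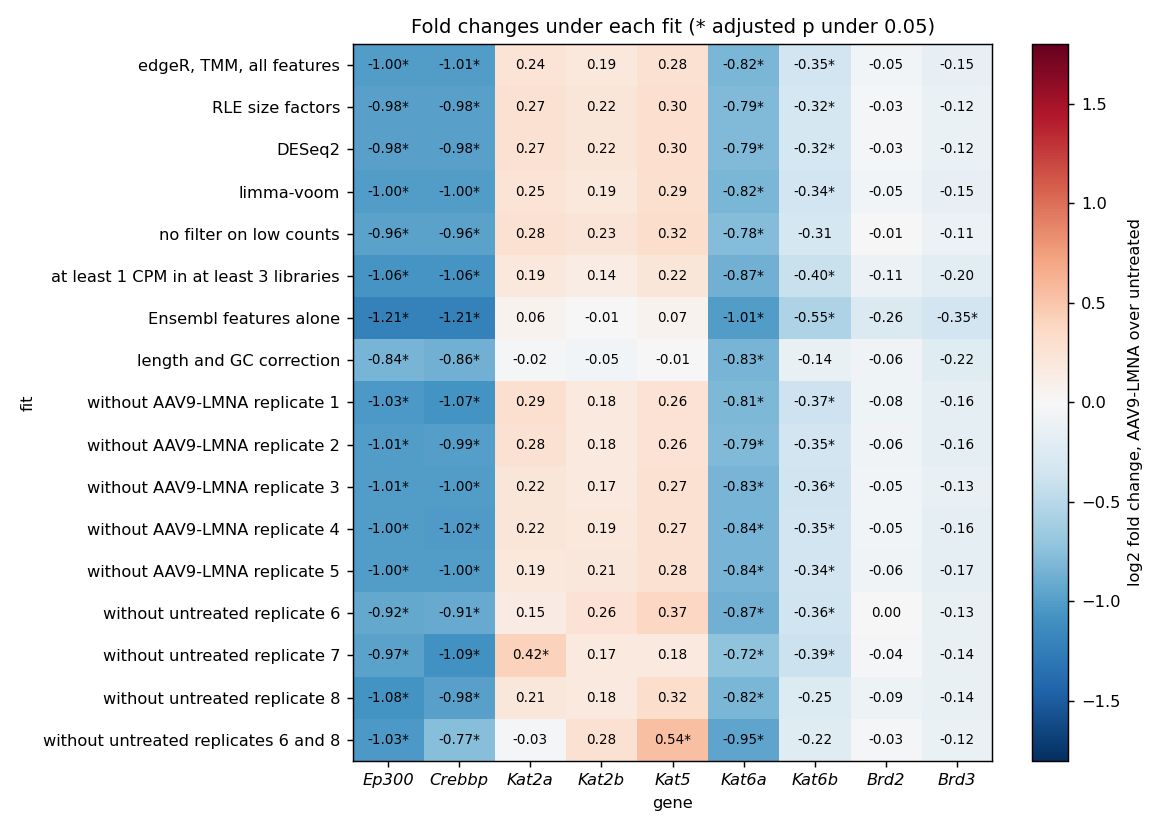
Log2 fold change of each gene (columns) in the edgeR fit and 16 alternatives (rows), AAV9-LMNA over untreated, coloured from blue (lower) to red (higher), with a star for an adjusted p under 0.05. Ep300, Crebbp and Kat6a are starred in every row, and Kat6b in the edgeR fit and 12 alternatives. Kat2a, Kat5 and Brd3 are starred in 1 row each.

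A ratio of 2 genes within a library does not depend on library scaling, and 8 pairs were computed. The ratios were not corrected for the trend with length. The median log2 fold change of like-length genes was -0.12 for Ep300, -0.09 for Crebbp, 0.03 for Kat6a, -0.18 for Kat6b and 0.09 for Brd2. How often ratios of other genes lie apart between the groups was not computed. The 4 paralog pairs were set by family, and the 4 other pairs were chosen after values were seen. Per exonic base, Ep300 to Crebbp was 0.53 ± 0.0909 (SD, n = 3) untreated and 0.527 ± 0.0295 (SD, n = 5) in AAV9-LMNA, with overlapping ranges. Kat2a to Kat2b (0.195 ± 0.0488 and 0.201 ± 0.0304) and Brd2 to Brd3 (3.19 ± 0.174 and 3.41 ± 0.143) overlapped as well. Kat6a to Kat6b did not, at 2.62, 3.33 and 2.46 untreated and 1.88, 1.85, 2.02, 2.11 and 2.17 in AAV9-LMNA, so Kat6a was lower relative to its paralog in each AAV9-LMNA library. Of the other pairs, Ep300 to Brd2 (0.328 ± 0.0193 and 0.17 ± 0.00335), Crebbp to Brd2 (0.628 ± 0.0764 and 0.324 ± 0.0204) and Kat6a to Brd2 (0.518 ± 0.0688 and 0.304 ± 0.0255) did not overlap between groups. Kat6a to Ep300 overlapped (1.58 ± 0.248 and 1.79 ± 0.142).

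**Figure D4:**
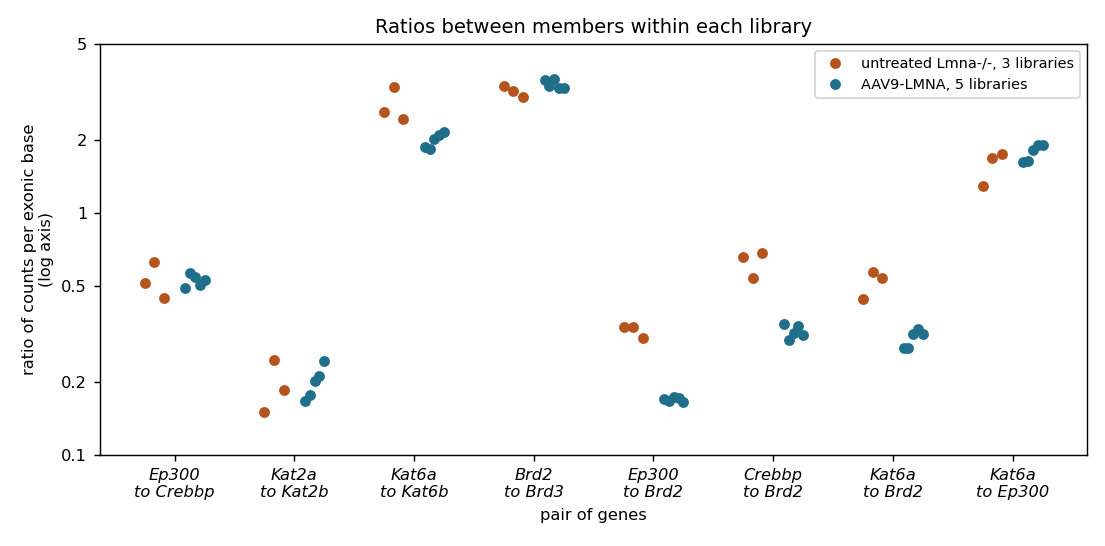
Ratio of counts per exonic base (log axis) for 8 pairs of genes in each of the 3 untreated and 5 AAV9-LMNA libraries, 1 point per library. The groups overlap for Ep300 to Crebbp, Kat2a to Kat2b, Brd2 to Brd3 and Kat6a to Ep300, and lie apart for the others.

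The genes with profiles most like each member over the 8 libraries were found by the smallest root mean square difference of centred log2 CPM among 8794 coding genes. Ep300 was nearest to Kmt2a (0.074), a histone H3K4 methyltransferase, and Ptprf (0.089). Crebbp was nearest to Parp4 (0.045) and Srrm2 (0.06), and Kat6a to Ddx6 (0.09) and Naa15 (0.095). The nearest genes of Kat6b were Mef2d (0.048) and Setd5 (0.05), of Kat2a Josd1 (0.043) and Zkscan3 (0.061), of Kat2b Xpo5 (0.03) and Acly (0.036), and of Kat5 Araf (0.038) and Zdhhc3 (0.044). Brd2 was nearest to Pip5k1b (0.034) and Zfyve26 (0.039), and Brd3 to N4bp2l2 (0.04) and Lgr4 (0.04).

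Partners and relatives of the 9 enzymes and readers were followed in 8 lists of 129 genes, all tested, of which 20 were called lower, 17 higher and 92 not. With Ensembl features alone 29 were lower and 3 higher, and after the length and GC correction 19 and 2. As shares these were 15.5% lower and 13.2% higher, beside 6.07% and 18.4% of coding genes, then 22.5% and 2.33% beside 8.73% and 4.49%, and after the correction 14.7% and 1.55% beside 5.8% and 2.95%. The lists differ in exonic length, with medians from 4121 bases for the SAGA and ATAC partners to 11031 bases for the other bromodomain genes, beside 4520 bases for the coding genes tested. For the lists of p300/CBP partners and co-recruited acetyltransferases, MOZ/MORF, HBO1 and MOF genes, BET relatives and cardiac factors, medians were 5115 to 6373 bases. These lie between Kat2b (4867) and Brd3 (7336). Of coding genes of like length to Kat2b and Brd3, 4.69% and 7.61% were called lower and 18.5% and 11.6% higher in the first fit. The lists of complex partners are given first.

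In the list of p300/CBP partners and co-recruited acetyltransferases, 4 of 14 fell, 1 rose and 9 did not pass (median log2 fold change -0.28). The steroid receptor coactivators Ncoa1, Ncoa2 and Ncoa3 were each called lower. Ncoa2 went from 140 ± 16.1 (SD, n = 3) to 97.4 ± 8.36 CPM (SD, n = 5, log2 fold change -0.52, SE 0.1, edgeR adjusted p = 0.00684). Ncoa3, named after its values were seen, differed least of these (-0.36, edgeR adjusted p = 0.0347). Crtc1, a CREB coactivator, fell from 19.9 ± 2.06 to 12.9 ± 1.55 CPM (-0.63, SE 0.13, edgeR adjusted p = 0.00881). Ncoa1 went from 101 ± 12.2 to 73.0 ± 4.43 CPM (-0.47), and was not called without untreated replicates 6 and 8 (-0.24). Cited4 rose, at 0.58 (edgeR adjusted p = 0.0419), and was not called with Ensembl features alone (0.37) or after the correction (0.12).

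Of 20 SAGA and ATAC partners of Kat2a and Kat2b, none fell, 2 rose and 18 did not pass (median 0.16). Atxn7l3, of the deubiquitinase module, rose from 20.4 ± 1.43 (SD, n = 3) to 25.4 ± 1.45 CPM (SD, n = 5; 0.31, edgeR adjusted p = 0.0455). Taf6l, named after its values were seen because it lies under the abundance minimum, was at 3.88 and 6.22 CPM (0.68, edgeR adjusted p = 0.0157). Of 16 TIP60 partners of Kat5, 1 fell, 3 rose and 12 did not pass (median 0.2). Beside these 2 lists, 18.4% of coding genes were called higher and 6.07% lower (median 0.21). The list medians of 4121 and 4180 bases lie between Kat2a (3480) and Kat2b (4867). Of the coding genes of like length to those, 23.6% and 18.5% were called higher and 2.95% and 4.69% lower. Ep400, an ATPase of the TIP60 complex, fell from 115 ± 7.43 to 83.8 ± 2.15 CPM (-0.46, edgeR adjusted p = 0.0049). Actl6a (0.51), Ruvbl2 (0.41) and Brd8 (0.28) rose. Actl6a and Ruvbl2 share 11.63% and 15.44% of their exonic bases with other genes, and the rise of each was lost with Ensembl features alone (0.32 and 0.22) and after the correction (0.23 and 0.1). Brd8 was at 0.08 and not called with Ensembl features alone, and at 0.31 and called after the correction.

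In the list of MOZ/MORF, HBO1 and MOF complexes, 4 of 19 fell, 2 rose and 13 did not pass (median 0.04). Brpf3, a BRPF scaffold, fell from 27.4 ± 5.41 (SD, n = 3) to 15.7 ± 2.2 CPM (SD, n = 5; -0.81, edgeR adjusted p = 0.00571), and Hcfc1, a host-cell factor also found with other chromatin enzymes, fell from 158 ± 8.98 to 114 ± 4.08 CPM (-0.47, edgeR adjusted p = 0.00439). Jade2 (-0.77) and Kansl1 (-0.39) were the others that fell, and Ing5 (0.45) and Msl3 (0.39) rose. Jade2, whose group ranges overlapped, lost its call after the length and GC correction (-0.67) and without untreated replicates 6 and 8 (-0.33).

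Of 15 BET relatives and elongation partners, 3 fell, none rose and 12 did not pass (median 0.05). Aff1, a scaffold of the super elongation complex, fell from 169 ± 27.4 (SD, n = 3) to 105 ± 8.38 CPM (SD, n = 5; -0.7, SE 0.11, edgeR adjusted p = 0.00381), and by less without untreated replicates 6 and 8 (-0.4). Nsd3, of a histone methyltransferase family, fell from 65.5 ± 2.71 to 43.8 ± 2.25 CPM (-0.58, SE 0.09, edgeR adjusted p = 0.00277). Aff4, another scaffold of the elongation complex, fell from 258 ± 39.4 to 207 ± 7.43 CPM (-0.31, edgeR adjusted p = 0.0425). The length and GC correction ended the call of Aff4 (-0.22). Of 23 other bromodomain genes, 4 fell, 2 rose and 17 did not pass (median -0.01). Their median length of 11031 bases lies between Kat6a (9180) and Crebbp (13540). Of coding genes of like length to those, 11.1% and 18.9% were called lower and 8.02% and 3.9% higher. Baz2a went from 112 ± 14.1 to 67.6 ± 4.84 CPM (-0.73, edgeR adjusted p = 0.00221), Ash1l from 214 ± 21.5 to 131 ± 9.74 CPM (-0.7, edgeR adjusted p = 0.00209), and Bptf (-0.38) and Atad2b (-0.32) fell as well, while Brd9 (0.66) and Trim28 (0.33) rose. Bptf was not called after the correction (-0.23), and the rises of Atxn7l3, Ing5, Msl3, Brd9 and Trim28 were called neither with Ensembl features alone nor after the correction.

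**Figure D5:**
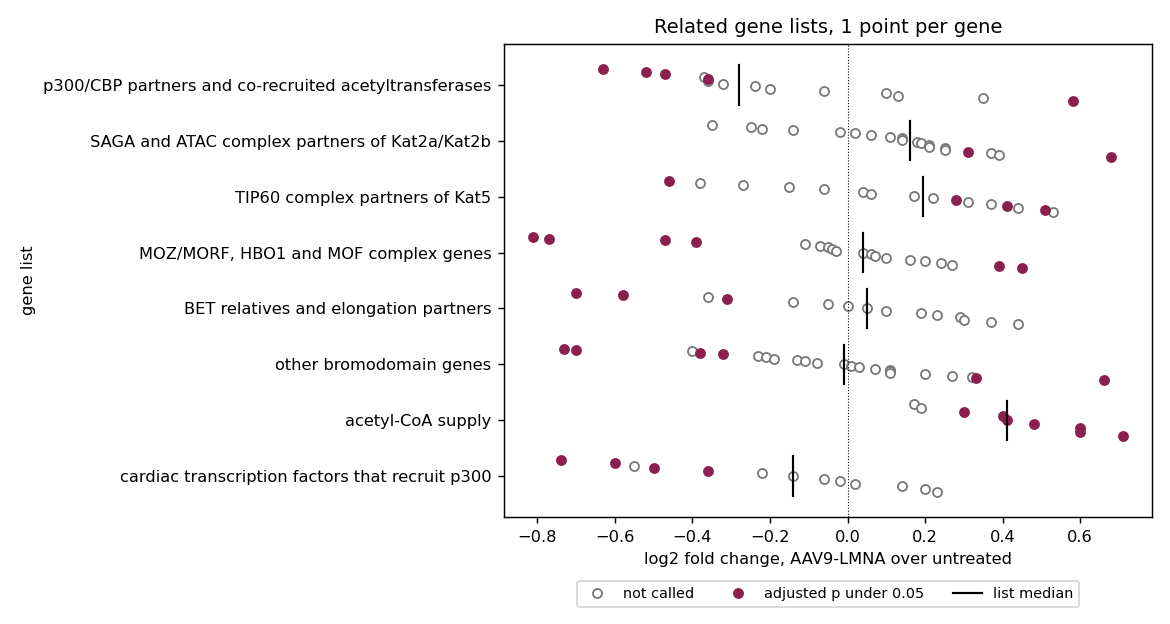
Log2 fold change, AAV9-LMNA over untreated, of the 129 genes in 8 lists related to the 9 genes, 1 point per gene (filled where adjusted p was under 0.05), with the list median as a bar. Brpf3 lies farthest to the left at -0.81, and 7 of the 9 acetyl-CoA supply genes are filled to the right of 0.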

How the data were processed

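Counts were deposited by the authors as raw whole-number counts per feature, made with TopHat2 and HTSeq on GRCm38 (mm10), per the submitters' processing notes, over 53465 Ensembl features and 87774 NONCODE features. Of the Ensembl features, 53274 matched GENCODE M21. The kits are miRNeasy and TruSeq per the labels' protocols, and reads were counted without strand, as the names of the deposited files state. Overlaps of NONCODE features with the genes are not known, and 21.03 to 26.37% of reads were ambiguous and stay uncounted.

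Differences were tested on the deposited counts of all features with the robust quasi-likelihood fit of edgeR 4.0.16 in R 4.3.3, after filterByExpr and TMM scaling, with Benjamini-Hochberg adjustment at 0.05. CPM used TMM library sizes. The alternatives were limma 3.58.1 (voom), DESeq2 1.42.0, RLE size factors, other filters, Ensembl features alone, a loess correction for length and GC content (span 0.5), and leaving out libraries. The scripts were tested on simulated data. No 2 libraries were duplicates by a chi-square comparison of counts.

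The members and lists were chosen with earlier results of these data known. Named were all 9 members and, in each list, up to 3 genes called lower and 3 called higher with the largest change (mean log2 CPM 3 or more), and for each member the 2 genes of most like profile. The longest-transcript length window and 4 of the ratio pairs were chosen after seeing the data. Taf6l, Ncoa3, Kansl1, Atad2b, Mef2d and Acss2 fall outside that rule and were named after their values were seen. Promoter windows are from RefSeq (GRCm38.p6). Kat6a had no entry. Promoter letters were searched on both strands. 1 gene of the lists is not reported here and is left out of their counts.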

Additional observations from a re-analysis of the deposited data

Results flagged for a closer look

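Among 47 gene levels checked in the 5 AAV9-LMNA libraries, 5 had 1 library whose gap to its nearest neighbour, as a share of the whole range, was above the critical value of 0.71; about 5% of such groups would be so by chance. Replicate 1 was the highest for Ep300 (61.3 CPM, the others 54.6 to 56.3), Brd2 (198 CPM, the others 175 to 182), Jade2 (38.8 CPM, the others 22.6 to 26.8) and Aff1 (119 CPM, the others 98.7 to 104). Replicate 3 was the lowest for Ncoa1 (65.1 CPM, the others 74.2 to 75.9).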

How the results depend on the processing

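No paired analysis was possible because the groups share no replicate numbers. Over the alternatives, 476 values of single genes kept direction and side of the threshold, 106 were no longer past it, 3 came past it and 7 turned or reached zero. Without untreated replicates 6 and 8 these were Gata6 (0.05), the only one called in the first fit, and Kat2a (-0.03). After the length and GC correction they were Kat2a (-0.02), Kat2b (-0.05) and Kat5 (-0.01), with Ensembl features alone Kat2b (-0.01), and without untreated replicate 6 Brd2 (0.0, in a range of -0.09 to 0.0 when 1 library was left out). Members called higher numbered 0, and 0 to 1 when a library was left out, with Kat2a called without untreated replicate 7; without untreated replicates 6 and 8 the count was 1. Related genes called higher numbered 17, but 3 with Ensembl features alone, 2 after the length and GC correction, 5 without untreated replicates 6 and 8, and 8 to 25 when 1 library was left out. Features called in either direction numbered 6858, but 1967, 1354 and 2143 under the same 3 settings in that order, and 4216 to 10033 when 1 library was left out. The numbers of features tested differed too, so these counts cannot be compared directly. They were 26717 in the first fit, 15256 both with Ensembl features alone and after the correction, and 29873 without untreated replicates 6 and 8. As shares of tested features, calls went from 25.7% to 12.9% with Ensembl features alone and 8.88% after the correction. Among the same 13785 coding genes they went from 24.5% to 13.2% and 8.74%. Without untreated replicates 6 and 8 the differences in log2 ratio were -0.26 for Ep300 to Crebbp, -0.31 for Kat2a to Kat2b and -0.73 for Kat6a to Kat6b. The cause of these changes was not tested; fewer samples were fitted where libraries were left out. Kat2a and Kat5, with the lowest counts of the 9 genes, had the largest SEs.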

Other observations

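Acetyl-CoA is the donor for histone acetylation, and 9 genes listed for its supply anywhere in the cell were followed. Of these, 7 rose, none fell and 2 did not pass the edgeR test (median log2 fold change 0.41). The 2 that did not pass were Acly (0.19) and Acss2 (0.17), and acetyl-CoA itself was not measured. Which of the 9 genes supply acetyl-CoA used on histones was not tested. In the same fit 18.4% of all coding genes were called higher, as were 23.6% and 18.5% of those of like length to Kat2a and Kat2b, whose lengths lie either side of the list's median of 4128 bases. Dlat, a subunit of pyruvate dehydrogenase, rose from 370 ± 8.85 (SD, n = 3) to 605 ± 46.0 CPM (SD, n = 5; 0.71, edgeR adjusted p = 0.00162), and remained called with Ensembl features alone (0.51) and after the length and GC correction (0.48). Pdhx, another subunit of that complex (0.6), and Slc25a1, the mitochondrial citrate carrier (0.6), rose as well, but neither was called after the correction (0.3 and 0.24), nor Slc25a1 with Ensembl features alone (0.42). With Ensembl features alone 2 of the 9 were called higher and after the correction 1, beside 4.49% and 2.95% of coding genes.

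Of 13 cardiac transcription factors that recruit p300, 4 fell, none rose and 9 did not pass (median -0.14), beside 6.07% of coding genes called lower. Tbx20 fell from 373 ± 32.2 (SD, n = 3) to 247 ± 10.9 CPM (SD, n = 5; -0.6, edgeR adjusted p = 0.00268). Myocd (-0.74), Gata6 (-0.5) and Mef2d (-0.36) fell too, but the groups overlapped for Myocd and Gata6, and without untreated replicates 6 and 8 neither was called (-0.19 and 0.05).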
